A study of Mus musculus with 39 samples.

Results

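Complement is a set of plasma and cell-surface proteins that tags targets for removal and for lysis. In the classical pathway C1q binds a target, its partner proteases C1r and C1s cleave C4 and C2, and the resulting convertase cleaves C3, the step on which all activation routes converge. Factor D drives the alternative amplification loop, C5 to C9 build the membrane attack complex, Serping1 (C1 inhibitor) blocks C1r and C1s, and C3ar1 is the receptor for the C3a fragment. C1q is made largely by tissue macrophages, Cfd (adipsin) is a classic product of fat cells, and the liver is the main source of C3 and C4 in plasma. The testis is an immune-privileged organ in which resident macrophages lie beside Leydig cells between the tubules.

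The 9 complement genes described here were C1qa, C1qb and C1qc (the C1q chains), C4b, C3, Cfd, C7, Serping1 and C3ar1, taken by symbol and joined by Ensembl identifier. They were 9 of 21561 genes listed in both deposited tables, and all 9 were found. RNA-seq covered 39 libraries in 13 groups of 3, each from C57BL/6J mice. WT gubernaculum (the cord that pulls the testis down) came from P8 and P23 mice and WT testis from P8, P23 and P40 mice. INSL3-KI mice, homozygous for minke whale INSL3 coding sequence placed at the mouse locus with its neo cassette removed by Cre, gave P8 and P23 gubernaculum and P8, P23 and P40 testis. INSL3-KO mice, without a functional Insl3 gene, gave P8 gubernaculum and P8 and P23 testis. Testes of adult INSL3-KI mice lay in the inguinal region and those of INSL3-KO mice near the kidney, so genotype and testis position cannot be told apart.

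Total counts ran from 29861447 to 45260372 per library. Mouse Insl3 stood at 110 to 139 FPKM in WT testis at P8 and at 801 to 1100 FPKM at P23 and P40. It was at most 22.0 FPKM in any INSL3-KI testis, and at 0 to 0.180 FPKM in INSL3-KO testis at P23. In gubernaculum it was at 0 in the P8 INSL3-KI and INSL3-KO libraries, but at P23 it had 12, 28 and 0 counts in INSL3-KI against 27, 9 and 20 in WT, so those levels do not separate the genotypes. The P8 testes labelled INSL3-KO held 25.1 to 33.5 FPKM, so the deletion is not seen as a loss of all Insl3 reads in those 3 libraries. The first table holds 27 libraries, and the second holds the INSL3-KO libraries and WT testis at P23. In any comparison across the tables, table and genotype cannot be told apart. Within P40 INSL3-KI testis replicate 1 stood apart from the other 2, with a spermatocyte and spermatid marker sum of 1317 FPKM against 249 and 237. In P23 INSL3-KI testis it was replicate 3 that stood apart.

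The C1q genes are neighbours on mouse chromosome 4 (GRCm38.p6), with C1qb at chr4:136880126-136886200, C1qc at chr4:136889801-136892936 and C1qa at chr4:136895916-136898844. C3 lies at chr17:57203967-57228136, C4b at chr17:34728139-34743902, C7 at chr15:4987750-5063773, Cfd at chr10:79890853-79892655, Serping1 at chr2:84765360-84775444 and C3ar1 at chr6:122847140-122856157. C4b has a near-identical copy, C4a, and only the second table listed C4a, so reads could be divided differently between the copies and C4b values across the tables are uncertain.

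Because C1qb and C3 were higher and C7 lower in P40 INSL3-KI testis, the 250 bases before the start of each of these genes are shown, read from the RefSeq promoter table on GRCm38.p6, which held 6 of the 9 genes. All 3 genes lie on the minus strand, and the sequences read 5′ to 3′ towards the gene, from chr4:136886201-136886450 (C1qb), chr17:57228137-57228386 (C3) and chr15:5063774-5064023 (C7). Capitals mark matches to the motifs searched.
C1qb: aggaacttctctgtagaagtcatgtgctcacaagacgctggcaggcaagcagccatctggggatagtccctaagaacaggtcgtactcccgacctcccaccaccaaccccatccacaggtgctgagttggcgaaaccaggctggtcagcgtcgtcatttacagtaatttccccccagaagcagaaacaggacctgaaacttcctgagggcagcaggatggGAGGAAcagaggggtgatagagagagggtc
C3: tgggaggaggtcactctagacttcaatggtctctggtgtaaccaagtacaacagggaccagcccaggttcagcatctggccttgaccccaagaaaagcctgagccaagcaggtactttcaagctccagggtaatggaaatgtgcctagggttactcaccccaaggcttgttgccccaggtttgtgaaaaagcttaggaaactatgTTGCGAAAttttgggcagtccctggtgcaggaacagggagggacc
C7: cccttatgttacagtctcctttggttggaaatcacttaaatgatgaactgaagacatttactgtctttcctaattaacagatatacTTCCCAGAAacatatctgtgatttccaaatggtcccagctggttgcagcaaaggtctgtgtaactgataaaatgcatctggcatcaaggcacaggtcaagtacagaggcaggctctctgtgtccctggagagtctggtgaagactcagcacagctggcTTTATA
The motifs, searched on both strands, were GAGGAA (the core bound by PU.1, the macrophage regulator Spi1), TTNNGCAA (C/EBP), TTCNNNGAA (STAT), GGG and TTCC with 3 bases between them (NF-kappaB) and TATAAA. Matches to different motifs did not overlap in these sequences. C1qb held GAGGAA 30 bases before its start, and C1qc held it on the other strand, 193 bases before. That core was present in 23.4% of the 32536 promoter windows of the same length. C3 held the C/EBP letters 45 bases before its start, against 9.6% of all windows. C7 held the STAT letters 164 bases before its start, against 7.0% of all windows, and the TATAAA letters on the other strand, against 12.3%. C3ar1 held the NF-kappaB letters, against 4.6% of all windows, and TATAAA, and Cfd held none of the 5 motifs. These are letter matches, not binding sites.

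In P40 testis the question was which complement genes differ once the INSL3-KI testis has failed to complete its descent. The 3 C1q chains, C3, Serping1 and C3ar1 were higher in INSL3-KI than in WT, C7 was lower, and C4b and Cfd did not pass. Genes were called with edgeR's quasi-likelihood test at an adjusted p below 0.01 and a fold change of at least 2. Of the 9 genes, 6 were called higher and 1 lower, against 25.6% of the 16677 genes tested called higher and 22.1% called lower. The median of the 9 log2 fold changes was 2.15, and that of all genes tested was 0.09. In bulk testis, a gain of cells of a type, a loss of germ cells and more RNA per cell cannot be told apart.

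**Figure D1:**
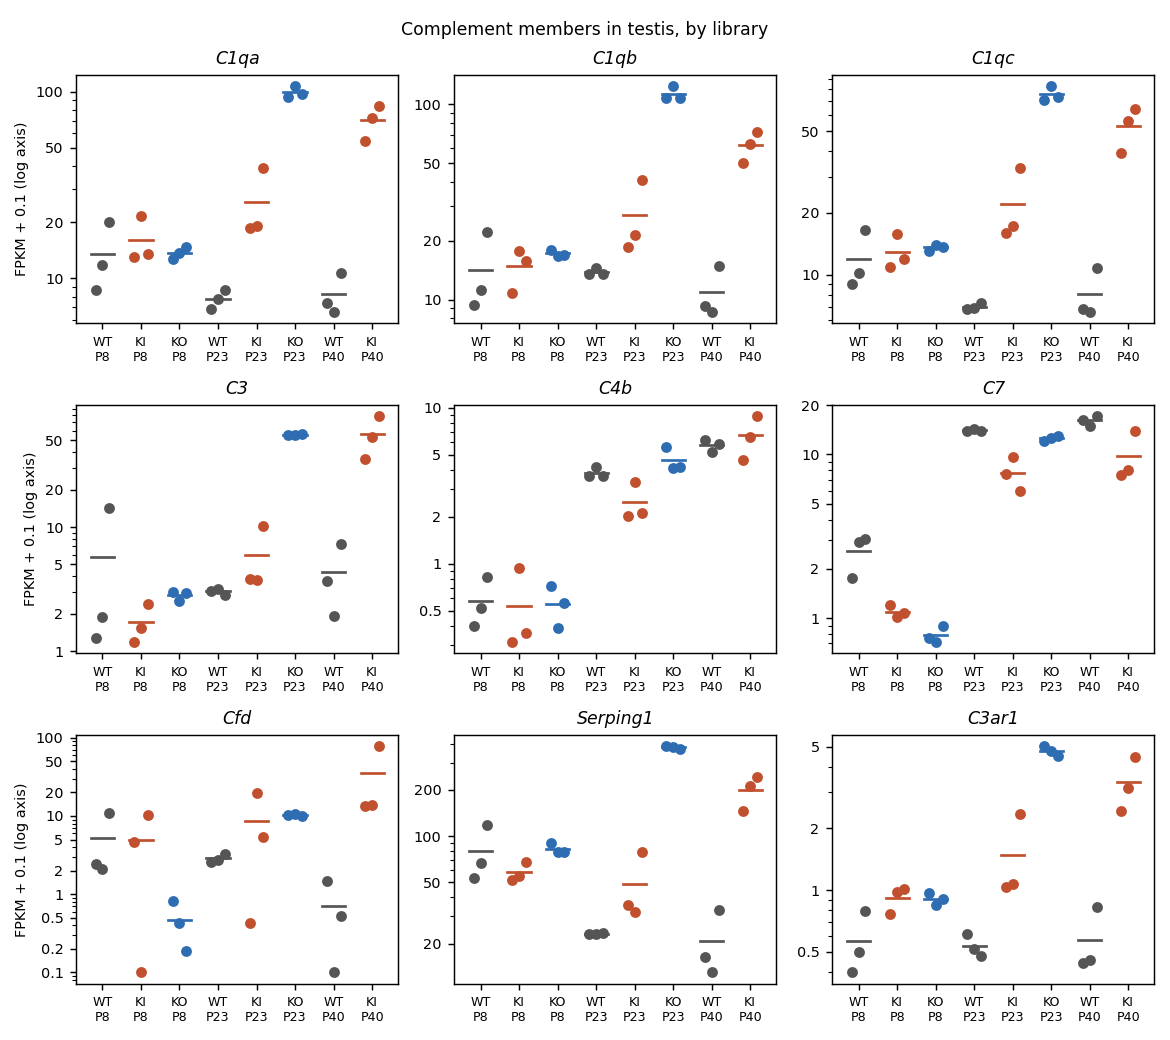
FPKM of each of the 9 genes in every testis library (points; 0.1 added, log axis), by genotype and age, with a line at each group mean (n = 3). At P40 the INSL3-KI points of C1qa, C1qb, C1qc, C3, Cfd, Serping1 and C3ar1 lie above every WT point, as for 55.3% of all genes tested, and those of C7 lie below, as for 29.1%.

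C1qa, the A chain of C1q, stood at 7.28, 6.52 and 10.6 FPKM in the WT P40 libraries and at 54.6, 72.1 and 83.2 FPKM in INSL3-KI. Every INSL3-KI value was above every WT value. Its log2 fold change was 2.49 (SE 0.22, adjusted p = 0.000339). C1qb, the B chain, went from 9.21, 8.53 and 14.7 FPKM to 50.0, 62.8 and 72.0 FPKM, a log2 fold change of 1.89 (SE 0.23, adjusted p = 0.000672). C1qc, the C chain, went from 6.73, 6.49 and 10.7 FPKM to 39.2, 56.0 and 63.6 FPKM, a log2 fold change of 2.11 (SE 0.24, adjusted p = 0.000589). The ranges did not overlap for any chain. The 3 chains assemble into C1q together, and on the per-length FPKM scale their levels within each of these 6 libraries lay close to each other.

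C3, the central component, stood at 3.59, 1.80 and 7.25 FPKM in WT and at 35.6, 53.3 and 78.6 FPKM in INSL3-KI (log2 fold change 3.11, SE 0.55, adjusted p = 0.00283). The ranges were separate, with a wide spread within each genotype. The call was lost when WT replicate 1 was left out (adjusted p = 0.0164, log2 fold change 3.04). C4b, the substrate of C1s, was at 6.12, 5.11 and 5.75 FPKM in WT and at 4.50, 6.44 and 8.76 FPKM in INSL3-KI, with overlapping ranges and a log2 fold change of -0.41 (SE 0.22, adjusted p = 0.131). So the C1q genes and C3, on either side of C4 in the classical pathway, were called higher, and C4b was not.

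Cfd, the factor D protease, was at 1.37, 0 and 0.429 FPKM in WT and at 13.2, 13.5 and 77.8 FPKM in INSL3-KI. The ranges were separate, but the adjusted p of 0.0105 (log2 fold change 5.19, SE 1.28) missed the threshold. It was called by DESeq2 (adjusted p = 0.00519) and when INSL3-KI replicate 1 was left out (5.58, adjusted p = 0.0011), but not without any of the other 5 libraries, where the log2 fold change ran from 3.87 without INSL3-KI replicate 3 to 6.66 without WT replicate 1. WT replicate 2 held 0 Cfd counts. Of the 8 adipocyte genes, 2 were called higher and 1 lower in this comparison. The 77.8 FPKM of Cfd was in INSL3-KI replicate 3, which also had the highest adipocyte sum of its group, 153 FPKM against 36.2 and 41.3. The WT adipocyte sums were 118, 114 and 110 FPKM, above those of INSL3-KI replicates 1 and 2, where Cfd was nonetheless higher than in WT. The part of fat-cell transcripts was not tested.

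C7, which joins the growing membrane attack complex, was the member that fell. Its WT libraries stood at 16.2, 14.8 and 17.1 FPKM and its INSL3-KI libraries at 7.40, 7.96 and 13.8 FPKM, without overlap (log2 fold change -1.35, SE 0.23, adjusted p = 0.0026). The call was lost when any of the 3 WT libraries was left out, with adjusted p-values of 0.0104 to 0.0124, and under scaling by library size alone (log2 fold change -0.73, adjusted p = 0.0357).

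Serping1, the inhibitor of C1r and C1s, had the highest level of the 9 genes in P40 INSL3-KI testis, at 146, 210 and 244 FPKM against 16.2, 12.9 and 32.9 FPKM in WT (log2 fold change 2.66, SE 0.39, adjusted p = 0.0013). C3ar1, the C3a receptor, had the lowest, at 2.33, 3.06 and 4.39 FPKM against 0.339, 0.356 and 0.728 FPKM (log2 fold change 2.15, SE 0.36, adjusted p = 0.00227). The 2 genotypes were apart for both genes. C3ar1 lost its call without WT replicate 1 (adjusted p = 0.0111) or WT replicate 2 (adjusted p = 0.0116).

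Markers of the cells in the P40 testis moved with these genes. The summed spermatocyte and spermatid list ran from 10450 to 11770 FPKM in WT and from 237 to 1317 FPKM in INSL3-KI, and 5 of its 10 genes were called lower. All 10 Sertoli cell genes were called higher (median log2 fold change 2.18), and their sum ran from 221 to 266 FPKM in WT and from 1254 to 1996 FPKM in INSL3-KI. Of the 15 macrophage genes, 12 were called higher (median 1.56) and 1, Aif1, lower. Aif1 stood at 173, 167 and 145 FPKM in WT P40 testis and at 3.86, 3.76 and 4.03 FPKM in INSL3-KI, and it made up most of the summed list in WT, which ran from 221 to 232 FPKM there and from 269 to 397 FPKM in INSL3-KI. Other sums were higher too: Leydig cell at 325 to 392 FPKM in WT and 700 to 907 FPKM in INSL3-KI, and fibroblast at 44 to 95 and 334 to 571 FPKM. Peritubular and smooth muscle sums ran from 53 to 90 and from 180 to 308 FPKM, and endothelium sums from 11.2 to 14.6 and from 21.3 to 30.8 FPKM. Neutrophil and monocyte sums were low, at 0.219 to 0.629 FPKM in WT and 1.98 to 3.24 FPKM in INSL3-KI. Lymphocyte and adipocyte sums overlapped between the genotypes. The part of these cell shares in the complement values was not tested beyond the scalings that follow.

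When the 6 libraries were scaled on the 10 Sertoli cell genes instead of by TMM, none of the 6 higher calls remained. The median of all genes then moved to -2.05, and edgeR gave log2 fold changes of 0.32 for C1qa, -0.26 for C1qb, -0.06 for C1qc, 0.93 for C3, 0.50 for Serping1 and -0.02 for C3ar1, with adjusted p-values of 0.0987 to 0.948. C7 fell further, to -3.53 (adjusted p = 0.00011), and C4b was called lower at -2.61 (adjusted p = 0.00011). Scaled on the 15 macrophage genes, C1qa stayed at 1.39, C1qc at 1.01, C3 at 2.06, Serping1 at 1.61 and C3ar1 at 1.07, all called, and C1qb at 0.81 was not. With Aif1 left out of that list, a choice made after its values were seen, C3 at 1.56 and Serping1 at 1.10 were the members called higher, C1qa, C1qb and C1qc stood at 0.88, 0.31 and 0.51, and C4b and C7 were lower. These scalings shift all genes alike, so they place the members relative to the scaling genes only. Most calls among all genes were lower under each of these scalings, so the loss of a higher call is not particular to the members. The place of a member among all genes stays much as under TMM.

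**Figure D2:**
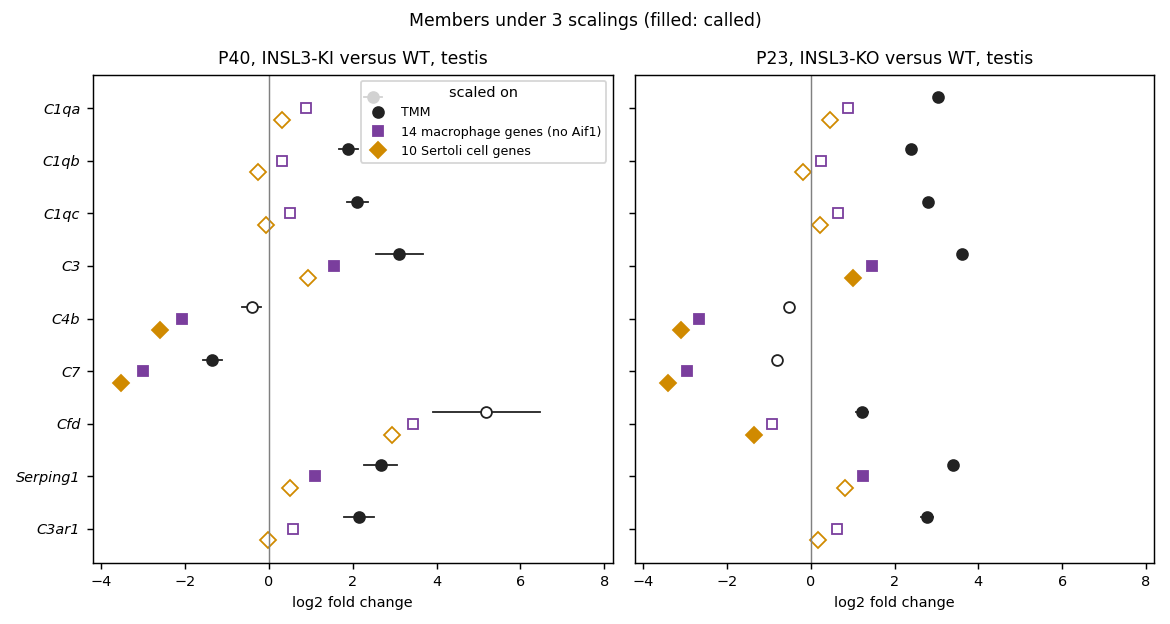
Log2 fold changes of the 9 genes in testis of P40 INSL3-KI against WT (left) and P23 INSL3-KO against WT (right), with libraries scaled by TMM (circles, bars are standard errors), on 14 macrophage genes without Aif1 (squares) or on 10 Sertoli cell genes (diamonds). Filled symbols passed an adjusted p below 0.01 with a fold change of at least 2; the C1q symbols move close to 0 when scaled on Sertoli cell genes, and C4b and C7 move to -2.61 and -3.53 at P40.

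The C1q level was also set against the macrophage list within each P40 library. The ratio of summed C1q CPM to summed macrophage CPM was 0.0938, 0.0889 and 0.130 in WT and 0.287, 0.276 and 0.279 in INSL3-KI. The difference of the mean log2 ratios was 1.45 (exact permutation test, two-sided, p = 0.1, the smallest that 3 against 3 allows). Without Aif1 the ratios were 0.207, 0.194 and 0.221 in WT and 0.289, 0.277 and 0.280 in INSL3-KI. The difference on the log2 scale was then 0.447. So the 1.45 rested largely on Aif1, which did not follow the other 14 genes in testis. Aif1 stood at 1.02, 1.22 and 1.40 FPKM in P8 WT and at 173, 167 and 145 FPKM in P40 WT. In P23 INSL3-KO every Aif1 value was below every P23 WT value, while the other 14 genes were all above. Scaling on the whole macrophage list shares this limit. The source of the Aif1 reads was not tested.

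The rest of the complement system was followed with 6 lists holding 51 genes, of which 50 were found. In P40 testis 43 were tested, 18 were called higher and 9 lower, and the median log2 fold change was 1.76. Leaving out the 9 members, 12 of 34 were higher and 8 lower. These counts stand beside 25.6% higher and 22.1% lower among all genes, so the lower calls were near the share of all genes. Of the classical and lectin pathway list 8 of 12 tested were higher and 0 lower, and of the terminal pathway list 0 of 6 were higher and 4 lower.

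Upstream, C1s1, the protease C1s that cleaves C4, was higher by a log2 fold change of 2.46 (adjusted p = 0.000365). C1ra and C1rb, the copies of C1r that activate C1s, rose by 2.37 and 2.31 and may share reads. Masp1, a protease of the lectin pathway, was at 2.89 (adjusted p = 0.000597). C5ar1, the C5a receptor of myeloid cells, rose most, by 3.16 (adjusted p = 0.000462). Its mean was near the floor in WT, at 0.123 FPKM, and 1.70 FPKM in INSL3-KI. So the substrates of Serping1, C1r and C1s, were higher together with their inhibitor.

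Downstream, C8a and C8b, chains of C8 in the attack complex, fell by 4.83 and 2.76 on the log2 scale (adjusted p = 0.00311 and 0.00888). Hc, which encodes C5, fell by 2.51 (adjusted p = 0.00691). Among membrane regulators, Cd55 and its testis-enriched copy Cd55b, which speed convertase decay, had log2 fold changes of -2.74 and -3.91 (adjusted p = 0.000118 and 0.00892), and Csmd1 fell by 3.87 (adjusted p = 0.00169). Cd55 and Cd55b may share reads. C8a, Hc and Csmd1 were near the floor in WT already, with means of 0.151, 0.118 and 0.118 FPKM. C8b had a mean of 5.08 FPKM in WT and 1.11 FPKM in INSL3-KI.

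**Figure D3:**
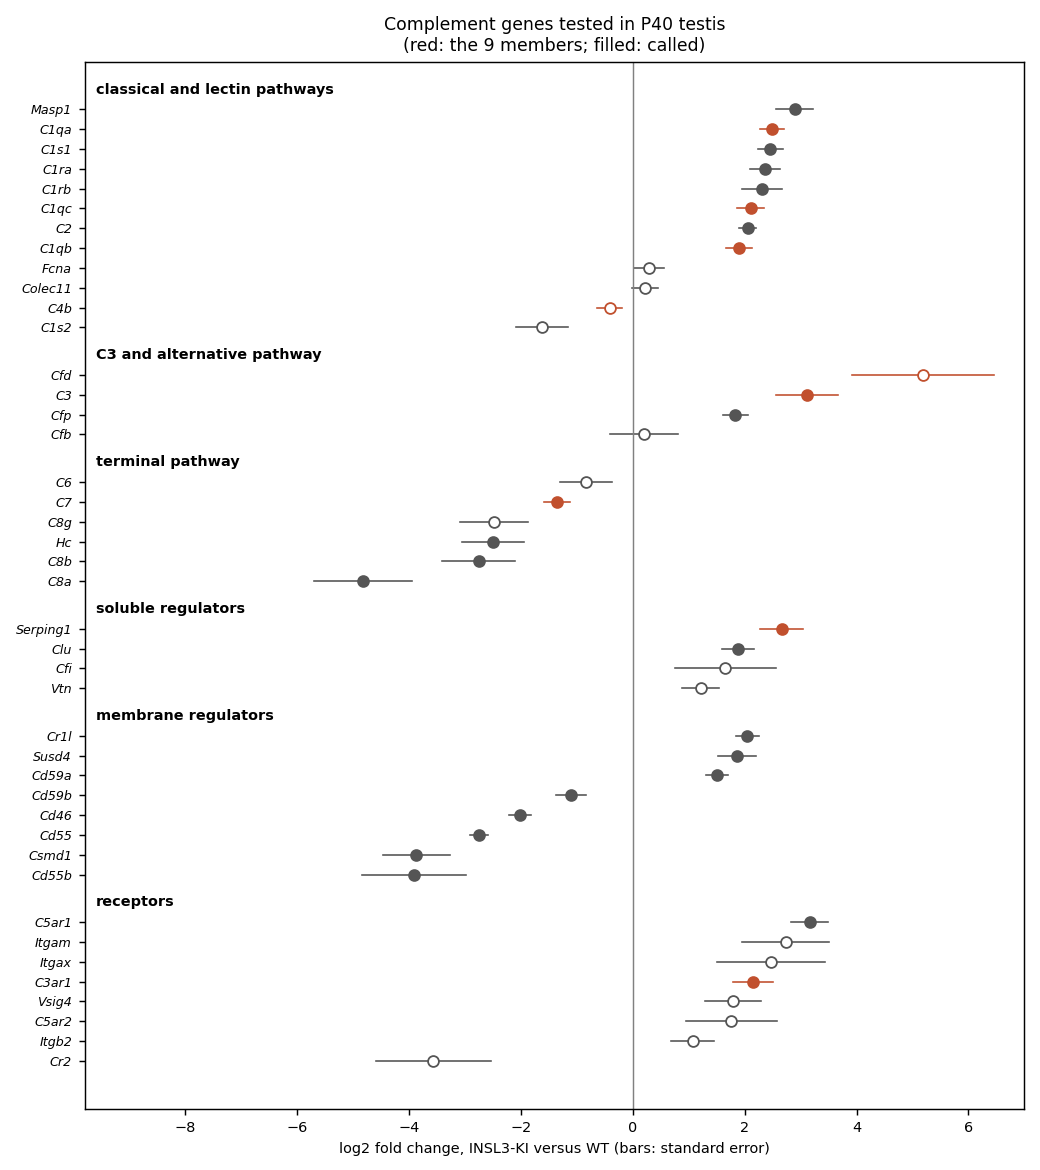
Log2 fold change with standard error for 42 of the 43 complement genes tested in P40 testis, INSL3-KI against WT, by list. Red marks the 9 members and filled symbols passed the test; in the classical and lectin pathway list 8 of 12 genes were called higher, and in the terminal pathway list 4 of 6 were called lower.

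In P8 testis the same genotypes were compared at an earlier age. No member was called by edgeR, 1 had an unadjusted p below 0.05 and DESeq2 called 1, C7 as lower in both cases. Among all 15702 genes, edgeR called 3.03% higher and 3.25% lower, 24.3% were lower at an unadjusted p below 0.05, and DESeq2 called 6.15% of its genes lower. C1qa was at 8.53, 11.6 and 19.9 FPKM in WT and at 12.9, 21.6 and 13.4 FPKM in INSL3-KI, with a log2 fold change of 0.16 (SE 0.38). C7 was at 1.66, 2.83 and 2.96 FPKM in WT and at 1.10, 0.916 and 0.967 FPKM in INSL3-KI (log2 fold change -1.42, SE 0.30, adjusted p = 0.0149). Its ranges were separate, as were those of 22.3% of all genes in that direction, while those of the other 8 members overlapped. Of 6 Leydig cell genes, 4 were called lower at this age (median -1.53), and the 7 fibroblast genes had a median of -1.63 with 1 called lower. Their part in the C7 value was not tested.

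The difference between the INSL3-KI effects at P40 and P8 was tested as an interaction over 12 libraries. It was called higher for 5 of the 9 genes, against 23.2% of 17354 genes higher and 22.5% lower. The log2 differences were 2.26 for C1qa (SE 0.47, adjusted p = 0.00183), 1.87 for C1qb, 2.03 for C1qc, 4.98 for C3 (SE 1.24, adjusted p = 0.00514) and 3.16 for Serping1 (SE 0.52, adjusted p = 0.00048). That of C3ar1 was 1.37 (adjusted p = 0.0442), and that of C7 was close to 0 (SE 0.53, adjusted p = 0.9999). C7 had a negative INSL3-KI effect at both ages. With 1 library left out, C1qa, C1qc and Serping1 kept their calls in each case. C3 lost its call without any of 5 libraries (INSL3-KI P8 replicate 1 or 2, WT P40 replicate 1 or 2, INSL3-KI P40 replicate 3), and C1qb without any of 6 (INSL3-KI P8 replicate 1 or 3, WT P40 replicate 1 or 2, INSL3-KI P40 replicate 2 or 3). Without WT P8 replicate 3, which held 14.1 FPKM of C3 and an adipocyte sum of 562 FPKM against 55.0 and 79.0, the C3 difference was 3.06 (adjusted p = 0.00509) and its P8 effect was 0.037. Scaled on Sertoli cell genes, 0 of the 5 differences was called, and C3 stood at 3.59 (adjusted p = 0.0314).

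At P23, INSL3-KI testis was compared with WT testis of the other table. C1qa was at 6.74, 7.71 and 8.59 FPKM in WT and at 18.6, 19.1 and 39.0 FPKM in INSL3-KI, giving a log2 fold change of 1.17 (SE 0.27, adjusted p = 0.0129). C7 was the member called, lower by 1.41 on the log2 scale (adjusted p = 0.00442), at 13.8, 14.3 and 13.8 FPKM in WT and 7.51, 9.55 and 5.86 FPKM in INSL3-KI. Its call was lost when any of 4 libraries was left out: a WT library or INSL3-KI replicate 1. Among all genes 8.81% were called higher and 11.8% lower. INSL3-KI replicate 3, which stood apart, held the highest C1q, C3, Serping1 and C3ar1 of its group. Its Sertoli cell sum of 1357 FPKM was also the highest, against 475 and 638.

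P23 INSL3-KO testis gave the highest levels of the C1q chains, Serping1 and C3ar1 among the 13 groups. C1qa stood at 93.6, 107 and 96.8 FPKM, against 6.74, 7.71 and 8.59 FPKM in WT of the same table (log2 fold change 3.04, SE 0.09, adjusted p = 4.59e-10). C3 stood at 55.6, 55.7 and 55.8 FPKM against 2.98, 3.09 and 2.71 FPKM (log2 fold change 3.60, SE 0.06, adjusted p = 5.04e-12). Serping1 stood at 384, 381 and 369 FPKM against 22.8, 23.1 and 23.2 FPKM (log2 fold change 3.39, SE 0.04, adjusted p = 1.3e-12). The replicates lay much closer together than those of P23 INSL3-KI testis, and so did those of P23 WT testis in the same table. Table and genotype cannot be told apart in this spread, so adjusted p-values are not to be compared between the INSL3-KO and INSL3-KI tests. Of the 9 genes, 7 were called higher, against 31.1% of 16732 genes higher and 33.4% lower.

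C1qb, C1qc and C3ar1 were higher by 2.39, 2.80 and 2.77 on the log2 scale. Cfd was at 10.2, 10.6 and 9.94 FPKM against 2.50, 2.63 and 3.17 FPKM (log2 fold change 1.23, adjusted p = 2.13e-05). C4b (-0.52, adjusted p = 0.000123) and C7 (-0.81, adjusted p = 3.69e-07) had small adjusted p-values but changed less than 2-fold. C7 stood at 12.1, 12.4 and 12.9 FPKM against 13.8, 14.3 and 13.8 FPKM. Again the 10 Sertoli cell genes were all higher (median 2.63) and the 10 spermatocyte and spermatid genes all lower (median -9.16).

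Scaled on the Sertoli cell genes, C3 was the member that stayed higher (log2 fold change 1.02, adjusted p = 1.82e-07). C1qa stood at 0.46, C1qb at -0.19, C1qc at 0.21, Serping1 at 0.81 and C3ar1 at 0.18, while C4b at -3.10, C7 at -3.40 and Cfd at -1.35 were called lower. The median of all genes was then -2.53, and most calls among all genes were lower. Of the 42 complement genes tested by TMM, 25 were higher and 10 lower, beside 31.1% higher and 33.4% lower among all genes. C5ar1 (3.54) and Vsig4, a macrophage receptor for C3b (3.18), rose most outside the 9. Their means were low in WT, at 0.163 and 0.383 FPKM, and 3.07 and 5.53 FPKM in INSL3-KO. Cd55b fell by 8.82 on the log2 scale, and Cr2, a receptor for C3d, had a mean of 0.223 FPKM in WT and was at 0 in every INSL3-KO library.

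INSL3-KI was lower than INSL3-KO at P23 for 6 of the 9 genes, against 13.0% of 16379 genes lower and 25.2% higher. The log2 differences were -1.83 for C1qa, -1.95 for C1qb, -1.65 for C1qc, -3.14 for C3, -2.83 for Serping1 and -1.63 for C3ar1, with adjusted p-values of 0.000419 to 0.00366. C3ar1 lost its call when any of 5 libraries was left out, all except INSL3-KI replicate 3 (adjusted p = 0.0121 to 0.018). Scaled on the Sertoli cell genes, C3 and Serping1 were the 2 that remained called.

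Between ages, the most members were called in INSL3-KI testis. From P8 to P40, 7 members were higher, against 2.81% of 15952 genes higher and 2.66% lower. The log2 differences were 5.20 for C3 (adjusted p = 0.00342), 3.36 for C7, 2.21 for C1qa, 2.15 for C1qb, 2.13 for C1qc, 2.07 for C3ar1 and 1.88 for Serping1. C4b (3.96, adjusted p = 0.0106) did not pass. None of the 7 passed when P8 replicate 1 or 3 or P40 replicate 2 or 3 was left out (adjusted p = 0.014 to 0.0395), and none passed with the replicate number as a block.

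From P23 to P40 in INSL3-KI testis edgeR called 0 members and 0% of 16328 genes in either direction. All 7 members with separate ranges, C1qa, C1qb, C1qc, C3, C4b, Serping1 and C3ar1, were higher with an unadjusted p below 0.05 and an adjusted p of 0.0991. Among all genes 24.9% had separate ranges in that direction and 22.4% were higher at an unadjusted p below 0.05. DESeq2 called 1.57% of its genes higher and 3 of the members, C1qa (1.17), C3 (2.99) and Serping1 (1.77).

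In WT testis the C1q chains, C3, Serping1 and C3ar1 were not called with age. C4b and C7 rose much as in INSL3-KI testis, where they stood at 3.96 (not called) and 3.36. From P8 to P40, C4b rose from 0.299, 0.419 and 0.725 FPKM to 6.12, 5.11 and 5.75 FPKM (log2 fold change 4.25, SE 0.31, adjusted p = 6.99e-06). C7 rose from 1.66, 2.83 and 2.96 FPKM to 16.2, 14.8 and 17.1 FPKM (log2 fold change 3.38, SE 0.23, adjusted p = 4.41e-06). These were the 2 members called, against 31.9% of 16892 genes higher and 27.8% lower. C1qa differed by -0.03 (SE 0.33) and C3 by 0.24 (SE 0.93). Serping1 was lower at -1.26 (adjusted p = 0.0196) and passed when P8 replicate 1 (-1.49, adjusted p = 0.00853) or P40 replicate 3 (-1.71, adjusted p = 0.00704) was left out. C3 passed as higher without P8 replicate 3 (2.19, adjusted p = 0.00662), which held 14.1 FPKM against 1.18 and 1.79 in the other 2.

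INSL3-KO at P8 was close to WT in testis for the C1q chains, in libraries whose Insl3 reads were not all lost. C1qa was at 12.6, 13.5 and 14.7 FPKM (log2 fold change -0.05, SE 0.30). C7 was called lower, at 0.658, 0.612 and 0.791 FPKM against 1.66, 2.83 and 2.96 FPKM in WT (log2 fold change -1.90, SE 0.29, adjusted p = 0.00129). Among all 15723 genes 5.44% were called higher and 8.37% lower. Cfd, at 0.709, 0.326 and 0.0874 FPKM against 2.33, 2.01 and 10.9 FPKM, missed the threshold (log2 fold change -3.73, adjusted p = 0.0105). It passed without WT replicate 1 (-4.04, adjusted p = 0.00256) and without no other library, with values from -4.53 without INSL3-KO replicate 1 to -2.47 without WT replicate 3. Of 7 adipocyte genes tested, 3 were lower there (median log2 fold change -3.93), and their part in the Cfd value was not tested.

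Between INSL3-KI and INSL3-KO testis at P8, edgeR and DESeq2 called no member, 2 had an unadjusted p below 0.05 as lower, as had 21.5% of all genes, and 2.76% of 15728 genes were called higher and 1.16% lower. Serping1 was at 51.8, 54.7 and 67.3 FPKM in INSL3-KI and at 90.0, 78.6 and 78.7 FPKM in INSL3-KO (log2 difference -0.55, SE 0.10, adjusted p = 0.00709), short of a 2-fold change. Cfd (3.50, adjusted p = 0.129) passed as higher (4.07, adjusted p = 0.00025) without INSL3-KI replicate 2, which held 0 counts, and stood at 2.42 (adjusted p = 0.274) without INSL3-KI replicate 3.

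In gubernaculum at P8, Cfd rose and C1q fell in INSL3-KI. Cfd was at 0.259, 0 and 0.347 FPKM in WT (9, 0 and 12 counts) and at 282, 385 and 373 FPKM in INSL3-KI (log2 fold change 10.34, SE 0.45, adjusted p = 1.2e-06). C1qa was at 36.9, 39.5 and 58.3 FPKM in WT and at 22.6, 25.4 and 25.1 FPKM in INSL3-KI (log2 fold change -1.22, SE 0.19, adjusted p = 0.000818). C1qb at -1.17 and C1qc at -1.24 fell with it. So 1 member was higher, against 14.4% of 15500 genes, and 3 were lower, against 9.70%. The C1q calls were lost with library size scaling (-0.91, -0.85 and -0.92, each under 2-fold), and without WT replicate 3 C1qa and C1qb (-0.998 and -0.988) fell short of 2-fold.

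**Figure D4:**
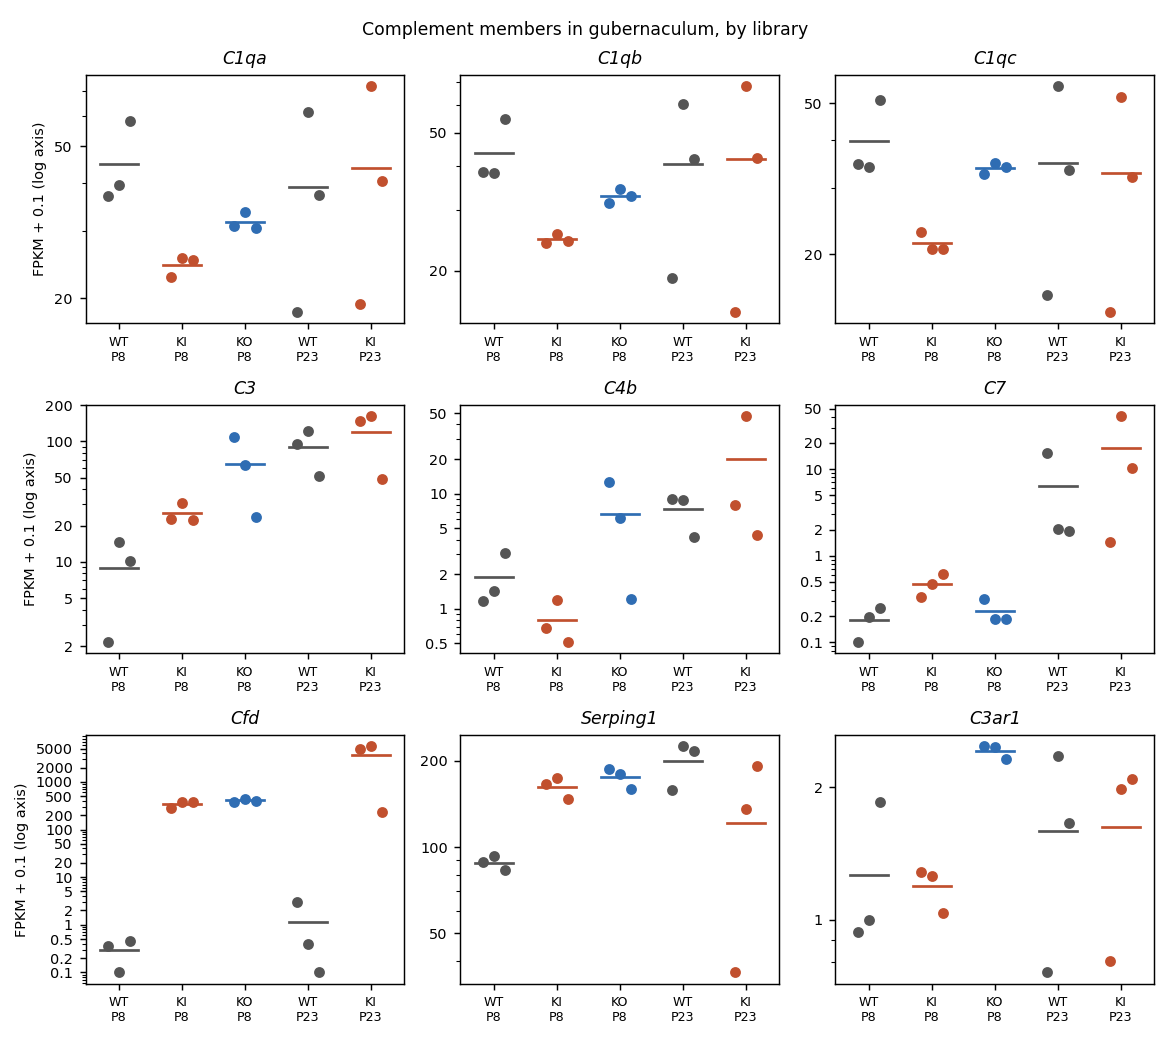
FPKM of each of the 9 genes in every gubernaculum library (points; 0.1 added, log axis) by genotype and age, with a line at each group mean (n = 3). Cfd is at 2.86 FPKM or less in all WT libraries and at 236 FPKM or more in all INSL3-KI and INSL3-KO libraries. At P8, the INSL3-KI points lie below those of WT for 3 members, the C1q chains. They lie above for 4, C3, C7, Cfd and Serping1. The share of all genes with separate ranges is not given for this comparison.

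Fat-cell, muscle and epididymis markers moved with these values. Of the 8 adipocyte genes, 7 were called higher in P8 INSL3-KI gubernaculum (median log2 fold change 6.87), and Adipoq, which encodes adiponectin, went from 0.124, 0.117 and 0.144 FPKM to 72.5, 71.2 and 103 FPKM. All 7 skeletal muscle genes were lower (median -9.50). The epididymis sum was at most 0.392 FPKM in WT and 1881 to 3630 FPKM in INSL3-KI. Of the 15 macrophage genes, 4 were lower and 0 higher (median -0.89). The neutrophil and monocyte sum ran from 0.446 to 2.02 FPKM in WT and from 33.85 to 55.5 FPKM in INSL3-KI. The part of tissue makeup in the Cfd and C1q differences was not tested. Outside the 9 genes, C4bp (9.56) and Cfi (9.44), soluble regulators that act on C4b and C3b, rose most. Their means were 0 FPKM in WT and 0.993 and 1.35 FPKM in INSL3-KI, so these fold changes have no firm size. Fcna (-2.64), a ficolin of the lectin pathway, and Vtn (-2.13), which inhibits the attack complex, fell most.

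Serping1 was at 88.5, 92.8 and 83.0 FPKM in WT and at 166, 174 and 147 FPKM in INSL3-KI, an increase short of 2-fold (log2 fold change 0.54, adjusted p = 0.00295). C3 was at 2.05, 14.6 and 10 FPKM in WT and at 22.6, 30.8 and 22.1 FPKM in INSL3-KI (log2 fold change 1.16, SE 0.56, adjusted p = 0.113). C7 was near the limit of detection, with 0, 10 and 15 counts in WT and 22, 33 and 43 in INSL3-KI.

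INSL3-KO gubernaculum at P8 resembled INSL3-KI in Cfd, at 381, 438 and 402 FPKM (log2 fold change against WT 10.79, SE 0.48, adjusted p = 3.09e-06). It was the member called, against 15.5% of 15609 genes higher and 15.2% lower. Serping1 was at 187, 180 and 159 FPKM (0.83, adjusted p = 0.000126), short of 2-fold. C3 stood at 108, 63.9 and 23.6 FPKM and C4b at 12.6, 6.04 and 1.12 FPKM in replicates 1, 2 and 3. The hepatocyte sum of those libraries fell in the same order, 4832, 1477 and 108 FPKM, with albumin (Alb) at 2092, 418 and 40.2 FPKM, and Alb was at most 0.302 FPKM in P8 gubernaculum of WT and INSL3-KI. Neither C3 (log2 fold change 2.71, adjusted p = 0.0175) nor C4b (1.63, adjusted p = 0.114) was called. Without INSL3-KO replicate 3 both were (3.11, adjusted p = 0.00996, and 2.14, adjusted p = 0.00894), and without INSL3-KO replicate 1 they stood at 2.14 (adjusted p = 0.0533) and 0.76 (adjusted p = 0.419). C4bp (13.66, SE 2.45) and Cfi (12.53, SE 2.23) rose most among the other complement genes. Their means were 0 FPKM in WT and 13.7 and 9.2 FPKM in INSL3-KO, so these fold changes too have no firm size. The part of hepatocyte transcripts in these values was not tested.

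**Figure D5:**
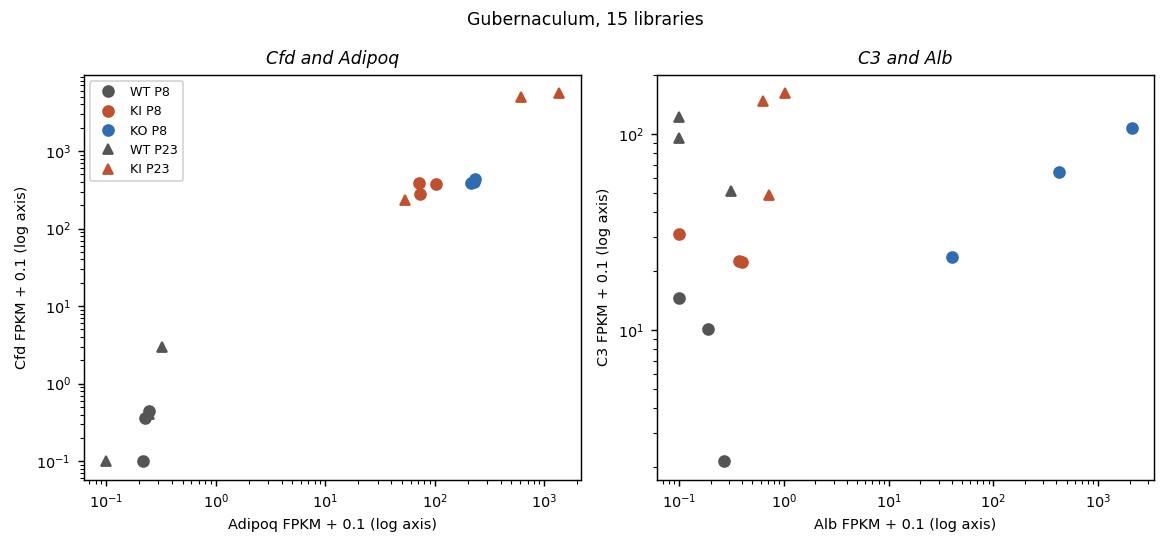
Left, Cfd against Adipoq, and right, C3 against Alb, in the 15 gubernaculum libraries (FPKM with 0.1 added, log axes; circles P8, triangles P23). Cfd and Adipoq are high in the same libraries; C3 is at 108, 63.9 and 23.6 FPKM in INSL3-KO libraries with Alb at 2092, 418 and 40.2 FPKM, and is as high at P23 with Alb at 0.929 FPKM or less.

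Set against INSL3-KO at P8, INSL3-KI gubernaculum was lower in C3ar1, at 1.19, 1.16 and 0.933 FPKM against 2.38, 2.37 and 2.22 FPKM (log2 difference -1.30, SE 0.15, adjusted p = 0.000289). The background was 11.9% of 15642 genes higher and 10.5% lower. C1qa (-0.59), C1qb (-0.63) and C1qc (-0.88) were lower with adjusted p-values of 6.91e-05 to 0.000678, each short of 2-fold. C3 (-1.59, adjusted p = 0.0247) and C4b (-3.37, adjusted p = 0.012) were not called. Without INSL3-KO replicate 3 both passed as lower (-1.99, adjusted p = 0.00102, and -3.88, adjusted p = 0.000847), and without INSL3-KO replicate 1 they stood at -1.02 (adjusted p = 0.0706) and -2.51 (adjusted p = 0.0331).

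At P23 the gubernaculum comparison called no member, 1 had an unadjusted p below 0.05 and DESeq2 called 1, Cfd as higher in both cases. Among 15082 genes 0.212% were called higher and 2.35% lower, 16.7% were higher at an unadjusted p below 0.05, and DESeq2 called 4.68% of its genes higher. Cfd was at 2.86, 0.304 and 0 FPKM in WT and at 4926, 5609 and 236 FPKM in INSL3-KI (log2 fold change 11.35, SE 2.58, adjusted p = 0.0407). Replicate 3 was low in the whole adipocyte list, with Adipoq at 52.8 FPKM against 606 and 1351. C1qa was at 18.3, 61.5 and 37.2 FPKM in WT and at 19.2, 72.0 and 40.5 FPKM in INSL3-KI, a spread within each genotype much larger than the log2 fold change of -0.06 (SE 0.59). The difference between the INSL3-KI effects at P23 and P8 was called for no member by edgeR or DESeq2, with 1 higher and 1 lower at an unadjusted p below 0.05, beside 11.6% and 14.0% of all genes, and for 0.0874% of 16016 genes higher and 0.194% lower.

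Between P8 and P23 in WT gubernaculum, C3 rose from 2.05, 14.6 and 10 FPKM to 95.1, 122 and 51.5 FPKM (log2 fold change 3.45, SE 0.69, adjusted p = 0.00889). Serping1 rose to 158, 225 and 216 FPKM (1.27, adjusted p = 0.0016), and C7 rose to 15.2, 1.92 and 1.84 FPKM (6.44, SE 1.28, adjusted p = 0.00876). These 3 compared with 6.17% of 14941 genes higher and 4.34% lower. The C1q chains did not change detectably (-0.14, -0.05 and -0.13), and Cfd had too few counts to be tested. C3 and C7 were lost without any of the 3 P8 libraries or without P23 replicate 1 or 2, and Serping1 was lost without any of the P8 libraries (adjusted p = 0.01 to 0.0144). C4b (8.90, 8.77 and 4.12 FPKM at P23) passed without P23 replicate 3 (2.46, adjusted p = 0.00691) and not without any of the other 5 libraries (1.87 to 2.71, adjusted p = 0.0137 to 0.0515).

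WT gubernaculum and testis at P8 differed in 5 members. C1qa (2.20, adjusted p = 0.00129), C1qb (2.08), C1qc (2.20) and C4b (2.35, adjusted p = 0.00484) were higher in gubernaculum, and C7 was lower (-4.44, adjusted p = 0.00296). Among 15624 genes, 14.1% were higher and 14.3% lower. The C4b call was lost without any of 4 libraries (adjusted p = 0.0107 to 0.024), and C7 was lost without gubernaculum replicate 2 (adjusted p = 0.0159) or testis replicate 2 (adjusted p = 0.0153). C3ar1 passed without testis replicate 3 (2.16, adjusted p = 0.00594).

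The 13 groups were ordered by mean FPKM, and neighbours with separate ranges were counted. There were 2 of 12 neighbour pairs for C1qa, C1qb, C1qc, Cfd and Serping1, 1 for C4b, 3 for C3, 4 for C3ar1 and 6 for C7. The same count was not made for other genes, so it does not set the members apart from them. For each C1q chain the order began with P23 INSL3-KO testis, then P40 INSL3-KI testis with a separate lower range. FPKM was made separately for each table, so the order across tables is a description.

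Over the 27 libraries of the first table, log2 CPM of the C1q chains had Pearson correlations of 0.98 to 0.99 with each other and of 0.91 to 0.92 with C3ar1. C7 had -0.04 to 0.02 with the C1q chains and 0.61 with C4b. Cfd had its highest value with C3, at 0.48. These libraries share genotypes, tissues and marker content, and the correlations are descriptive. Among 16895 genes, the nearest to C1qa, C1qb and C1qc was Folr2 (0.98 for each), a folate receptor of tissue macrophages, and Spi1, which encodes PU.1, was among the nearest 3 for each (0.96 to 0.97). C3ar1 was nearest to Tlr8 (0.94), Serping1 to C1ra (0.93) and C1s1 (0.92), and Cfd to Retn (0.95) and Cidec (0.95), both fat-cell genes. C3 was nearest to Lgals3bp (0.91), C4b to Serpina3n (0.87) and C7 to Pla1a (0.85).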

How the data were processed

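Total RNA of gubernaculum and testis was extracted with TRIzol, and poly(A) libraries were sequenced in pairs on a NovaSeq instrument by the authors. Reads were aligned with HISAT2 to GRCm38 per the labels, and the counting program is not given in the sources used here. The authors deposited raw gene counts and FPKM values, each in 2 tables that were normalized separately. The 21561 Ensembl genes in both tables, which held 94.2% to 97.9% of counts, were used here.

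Counts were tested with edgeR (version 4.0.16; R 4.3.3) using its quasi-likelihood F-test after TMM scaling, on the 6 libraries compared (12 for interactions), after filterByExpr with its default minimum count of 10. Genes were called at a Benjamini-Hochberg adjusted p below 0.01 and a fold change of at least 2, thresholds taken from the study. Log2 fold changes are from edgeR and levels are deposited FPKM, which are not TMM-scaled. DESeq2 (1.42.0), limma (3.58.1) on log2(FPKM + 1) or log2(FPKM + 0.1), scaling on marker lists and leaving out libraries were alternatives. The edgeR script was tested on simulated counts. No 2 replicates agreed within sampling noise. The labels call the 3 libraries of a group biological replicates, and the study describes them as independent.

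The members, gene lists and markers were chosen with earlier results of these data known. All 9 members were named, with up to 6 other complement genes per direction at P40 and 2 elsewhere by fold change. A complement gene that this rule names is counted in its list but is not reported here. The likest genes were the 3 with the highest correlation of log2 CPM (prior count 2), leaving out predicted genes.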

Additional observations from a re-analysis of the deposited data

Results flagged for a closer look

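The INSL3-KI effect in testis differed between P40 and P8, by the interaction test of edgeR, for C1qa (log2 difference 2.26), C1qb (1.87), C1qc (2.03), C3 (4.98) and Serping1 (3.16). In each case the P40 effect was the larger. Among all 17354 genes tested, 23.2% were called higher and 22.5% lower in this interaction, so a call is common. The 5 calls became 3 without INSL3-KI P8 replicate 1, WT P40 replicate 1, WT P40 replicate 2 or INSL3-KI P40 replicate 3, and the C3 difference was 3.06 without WT P8 replicate 3. Groups of 3 libraries were too small for a test of single outlying samples.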

How the results depend on the processing

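Counts of called members changed as follows. In this section they stand without the share of all genes called under each setting. They show how far the member calls depend on processing, and not how the members compare with other genes. In P40 testis, 6 higher and 1 lower became 0 and 2 with Sertoli cell scaling, 2 lower with macrophage scaling, and 2 and 2 with macrophage scaling without Aif1, an alternative chosen after seeing the data. There 0 were lower with library size alone and with limma at either pseudocount. With Sertoli cell scaling C1qb (-0.26), C1qc (-0.064) and C3ar1 (-0.022) were below 0 but not distinguishable from it (adjusted p = 0.241, 0.742 and 0.948). C4b, not called, was at 0.21 with library size and at 0.15 and 0.16 with limma at pseudocounts of 1 and 0.1. In P8 testis of INSL3-KI, 1 was lower with DESeq2, with all testis groups in 1 fit and with macrophage scaling. C3 there ran from -2.46 without WT replicate 1 to 0.037 (adjusted p = 0.954) without WT replicate 3. In P23 INSL3-KO testis, 7 higher became 1 with Sertoli cell scaling and 2 with macrophage scaling without Aif1, and lower calls became 1 with DESeq2, 3 with Sertoli cell scaling and 2 with either macrophage scaling. C1qb was at -0.19 (adjusted p = 0.046) and Cfd at -1.35 (adjusted p = 5.86e-06) with Sertoli cell scaling, Cfd at -0.38 and -0.92 with the macrophage scalings, and C4b at 0.12 with library size and at 0.22 and 0.27 with limma.

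In P23 INSL3-KI testis against WT, higher calls became 2 with DESeq2, library size and limma at either pseudocount and 3 with all testis groups in 1 fit. Lower calls became 2 with DESeq2 and 0 with library size, limma, Sertoli cell and macrophage scaling, and C1qc (-0.028) and C3ar1 (-0.089) were near 0 with Sertoli cell scaling (adjusted p = 0.926 and 0.796). Against INSL3-KO, 2 were lower with Sertoli cell and with macrophage scaling. In P8 INSL3-KO testis 2 were lower with DESeq2, no filter, limma at 0.1, and Sertoli cell and macrophage scaling. In P8 gubernaculum of INSL3-KI against WT, 0 were lower with library size, limma and all groups in 1 fit. There, INSL3-KO against WT gave 2 higher with DESeq2, library size and all groups in 1 fit. INSL3-KI against INSL3-KO gave 3 lower with DESeq2, and 0 with limma at 1 and all groups in 1 fit. At P23, 1 was higher with DESeq2, limma and all groups in 1 fit. In WT testis over age, 1 was lower with library size and limma, and DESeq2 gave 3 higher for INSL3-KI from P23 to P40. Between WT tissues, 2 were lower with DESeq2, library size and limma. For the interaction in testis, 0 were higher with Sertoli cell and 3 with macrophage scaling, and C3ar1 was at -0.19 (adjusted p = 0.83) with the former. The cause of these changes was not tested.

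Scaling also moved all genes. The share of calls that were higher in P40 testis was 53.6% with TMM, 72.8% with library size, 0.3% with Sertoli cell, 9.4% with macrophage and 1.6% with macrophage scaling without Aif1. In P23 INSL3-KO testis these shares were 48.2%, 61.3%, 0.8%, 6.3% and 1.8%. In P23 INSL3-KI testis against WT, TMM gave 42.6% and library size 71.3%, and in P8 gubernaculum 59.8% and 73.5%.

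Samples were not treated as paired by replicate number, since in no comparison did all pairs correlate above 0.1. Some pairs did, as in P23 gubernaculum of INSL3-KI and WT (-0.122, 0.344 and 0.463). With 3 libraries per group this rule cannot exclude a pairing. With the replicate number as a block, 1 member was lower in WT testis over age, 0 were higher in INSL3-KI testis from P8 to P40 and 1 in WT gubernaculum over age, and the other counts stayed within 1.5 times.

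Leaving out a library, with higher and lower calls in that order, gave ranges of 4 to 7 and 0 to 1 in P40 testis and 0 to 1 lower in P8 INSL3-KI testis. It gave 0 to 2 lower in P23 INSL3-KI testis, and 0 to 1 higher and 1 to 2 lower in P8 INSL3-KO testis. In P8 gubernaculum it gave 1 to 4 lower for INSL3-KI, 1 to 3 higher for INSL3-KO and 1 to 3 lower between them. INSL3-KI against INSL3-KO testis at P8 gave 0 to 1 higher. Over age it gave 0 to 1 lower in WT testis, 0 to 7 higher in INSL3-KI testis and 0 to 4 higher in WT gubernaculum. Between WT tissues it gave 0 to 1 lower, and for the testis interaction 3 to 5 higher.

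Depth limits members with few counts: in WT gubernaculum at P8, Cfd had 9, 0 and 12 counts and C7 had 0, 10 and 15, and in WT testis at P40 Cfd had 46, 0 and 17.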
